A study of Mus musculus with 6 samples.

Results

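Small leucine-rich proteoglycans are secreted matrix proteins built around leucine-rich repeats, and 10 of their genes were followed here in mouse aorta: Dcn, Bgn, Aspn, Ecm2, Lum, Fmod, Prelp, Omd, Ogn and Podn. They were chosen by symbol from a deposited table of 56748 genes, each symbol matched 1 row, and all 10 were abundant enough to be tested. Their counts ran from 202 to 87452 per library. Bulk RNA sequencing was made from aortas of mice that were 6 months old, labelled Apoe -/-, and given angiotensin II from an osmotic pump over 28 days. One group was wild-type for soluble ST2 (WT, n = 3) and the other consisted of sST2-knockout littermates (sST2-KO, n = 3), so both groups carry the Apoe deletion and the infusion. The sources used here do not say how soluble ST2 was removed, which sex the mice had or which part of the aorta was taken.

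Members of this family sit on the surface of collagen fibrils, where they set fibril diameter and spacing, and several bind growth factors of the TGF-beta family and receptors of innate immunity. Decorin and biglycan carry chondroitin or dermatan sulfate chains, whereas lumican, fibromodulin and their relatives carry keratan sulfate or little sugar. In arteries they are made mainly by adventitial fibroblasts and by smooth muscle cells, and loss of biglycan is known to weaken the wall of the aorta.

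The aortic origin and the libraries that stand apart were checked by markers, in CPM (counts scaled to library size after TMM normalization). Smooth muscle markers were present in every library, with Myh11 at 797 to 2529 CPM and Acta2 at 1644 to 6588 CPM. Airway epithelium markers summed to 17869 CPM in sST2-KO replicate 2 and to at most 11 CPM elsewhere, and liver markers to 7159 CPM in WT replicate 3 and to at most 5.10 CPM elsewhere. Without both of these libraries the log2 change of Lum was -1.76 and that of Dcn -1.13, against -1.51 and -0.92 with all 6. Those of Aspn, Ecm2, Omd and Ogn were also larger in size. Smaller in size were those of Fmod (-1.18, against -1.395), Prelp (-0.55, against -0.62), Bgn (-0.67, against -0.70) and Podn (-0.90, against -0.92). The members' median was -0.94, against -0.78. Adipocyte markers summed to 1081 to 9244 CPM over the libraries. Il1rl1, whose counts add the soluble and the membrane form of ST2, had 2.81 to 9.49 CPM in WT and 2.39 to 4.86 CPM in sST2-KO and checks the labels weakly. Apoe had 15.1, 11.6 and 507 CPM across WT replicates 1 to 3, against 172, 86.7 and 145 CPM across sST2-KO replicates 1 to 3. All mice were labelled as deficient. The highest value, in WT replicate 3, came from the library with liver markers, and WT replicates 1 and 2 lay below every sST2-KO library. The cause of these Apoe differences was not tested.

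All 10 genes had lower estimated levels in sST2-KO than in WT, and none passed the test across all genes. Lum was 2.85-fold lower and Fmod 2.63-fold lower, whereas Ecm2 was 1.17-fold lower. The edgeR quasi-likelihood test with Benjamini-Hochberg adjustment called 0 of 10 members, as it called 0 of 16377 tested genes (0% in either direction). At an unadjusted p under 0.05, edgeR counted 5 members lower (Lum, Podn, Fmod, Dcn and Prelp) and 0 higher, against 5.95% of all tested genes lower and 5.08% higher by the same rule. DESeq2 gave calls for 3 members, all lower (Lum, Fmod and Podn), where its background was 1.60% of genes lower and 0.406% higher. Weighting libraries by quality in limma-voom gave a call for Lum alone, where its background was 0.214% lower and 0.0488% higher. Plain limma-voom called none of the members (background 0%). The members' median log2 change was -0.78, and the median of all tested genes was 0.042. A negative log2 change was found for 10 of 10 members and for 46.5% of all tested genes, the other 53.5% being positive. With whole-tissue RNA, fewer cells that make a transcript and less transcript per cell cannot be told apart. P-values weigh each group difference against the spread among these samples only.

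The genes lie in neighbourhoods that share ancestry. By the deposited mm39 coordinates, Prelp and Fmod are next to each other on chromosome 1 with 116 kb between them, and Dcn and Lum are separated by 47.0 kb on chromosome 10. Ecm2, Aspn, Omd and Ogn follow each other on chromosome 13 with gaps of 11.7, 14.9 and 15.2 kb. No other protein-coding gene lies wholly within any of these gaps. Podn on chromosome 4 and Bgn on chromosome X stand alone. The start-site windows of Prelp and Fmod and of Omd and Ogn are shown because Prelp and Fmod both separated the groups, whereas Omd and Ogn did not. Among pairs of members, Omd and Ogn had the highest correlation of log2 CPM across libraries. Each window holds 250 bases before and 50 after the start of the gene in RefSeq on GRCm38.p6, an earlier build than that of the counts. They are chr1:133921352-133921651 (minus strand) for Prelp, chr1:134037004-134037303 (plus strand) for Fmod, chr13:49582212-49582511 (plus strand) for Omd and chr13:49607765-49608064 (plus strand) for Ogn. Capitals mark matches, on either strand, to the TATA box TATAAA, the TEAD motif GGAATG, the AP-1 motif TGANTCA or the SMAD motif CAGAC.
Prelp: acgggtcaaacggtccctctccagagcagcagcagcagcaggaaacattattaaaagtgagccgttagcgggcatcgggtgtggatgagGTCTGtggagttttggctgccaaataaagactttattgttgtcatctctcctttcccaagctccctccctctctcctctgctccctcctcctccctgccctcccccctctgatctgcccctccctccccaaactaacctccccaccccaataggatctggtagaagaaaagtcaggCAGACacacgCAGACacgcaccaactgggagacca
Fmod: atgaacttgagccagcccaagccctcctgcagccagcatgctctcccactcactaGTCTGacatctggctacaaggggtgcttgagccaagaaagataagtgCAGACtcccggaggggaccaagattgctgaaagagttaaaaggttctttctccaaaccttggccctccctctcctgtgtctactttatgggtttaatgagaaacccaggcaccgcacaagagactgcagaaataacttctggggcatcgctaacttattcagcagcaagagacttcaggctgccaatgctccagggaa
Omd: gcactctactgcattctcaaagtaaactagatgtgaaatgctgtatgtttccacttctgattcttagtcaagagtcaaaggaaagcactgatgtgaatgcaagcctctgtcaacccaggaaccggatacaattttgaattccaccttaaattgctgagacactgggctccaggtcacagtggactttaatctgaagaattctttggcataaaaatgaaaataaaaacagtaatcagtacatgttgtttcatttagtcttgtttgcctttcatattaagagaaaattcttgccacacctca
Ogn: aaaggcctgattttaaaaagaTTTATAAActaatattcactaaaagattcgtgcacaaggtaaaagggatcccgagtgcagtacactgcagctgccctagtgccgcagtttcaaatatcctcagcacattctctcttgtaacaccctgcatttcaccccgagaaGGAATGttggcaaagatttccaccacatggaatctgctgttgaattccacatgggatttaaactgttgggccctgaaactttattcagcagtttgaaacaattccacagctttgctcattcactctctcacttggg
Prelp held 3 matches to CAGAC and Fmod 2, and 49.6% of all 32851 windows hold at least 1. Ogn held 1 match to GGAATG, present in 14.7% of windows, and 2 overlapping matches to TATAAA, present in 13.6%. Those of Ogn to TATAAA began 229 and 227 bases before the start site. The Omd window held none of the 4 motifs, and no member's window held TGANTCA, present in 7.81% of windows. GC content was 55.3% for Prelp, 51.0% for Fmod, 37.7% for Omd and 42.3% for Ogn, against a median of 52.7% over all windows. Windows were found for 8 of the 10 members. Lum and Dcn had no window. Of the windows not shown, that of Aspn, which also separated the groups, held 2 matches to TATAAA and 0 to CAGAC. Podn, separated too, held 1 match to CAGAC in 1 window and 0 in another. Bgn and Ecm2, which overlapped, held none of the 4 motifs. A match to such short letters is a description of the sequence only.

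Compared per length, Bgn had the highest mean level and Omd the lowest. In RPKM (CPM per kilobase of the deposited gene length), the WT means were 761 ± 332 for Bgn, 573 ± 70.9 for Lum, 563 ± 176 for Dcn and 253 ± 191 for Ogn (SD, n = 3 each). They were followed by 162 ± 29.9 RPKM for Prelp, 84.4 ± 42.3 for Aspn, 76.1 ± 18 for Fmod, 23.7 ± 13.1 for Ecm2, 22.5 ± 3.29 for Podn and 9.76 ± 7.17 for Omd. In that WT order the library ranges of neighbours overlapped except between Prelp and Aspn, Fmod and Ecm2, and Podn and Omd. The sST2-KO order differed from the WT order only in that Dcn (297 ± 59.2 RPKM, n = 3) stood above Lum (201 ± 47.7 RPKM, n = 3), with overlapping libraries. Together the 10 genes took 0.980, 1.23 and 0.935% of all counts across WT replicates 1 to 3, against 0.648, 0.633 and 0.624% across sST2-KO replicates 1 to 3. Every WT library gave the family a larger share than every sST2-KO library.

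**Figure D1:**
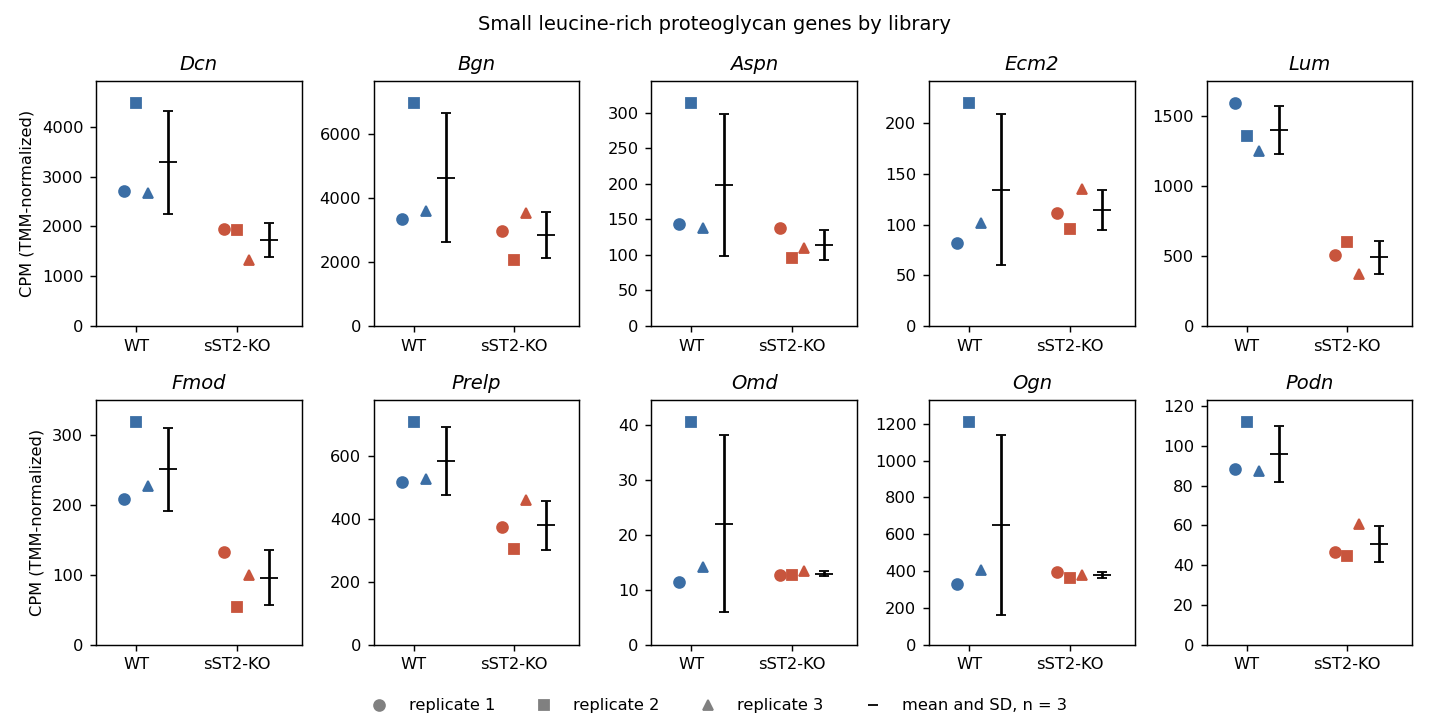
TMM-normalized CPM of each member gene (vertical axes, starting at 0 and scaled per gene) in the 3 WT and 3 sST2-KO libraries, with symbols for replicate numbers and the mean and SD beside them. Lum, Fmod, Podn, Prelp, Dcn and Aspn do not overlap between groups, and WT replicate 2 is the highest library for every gene but Lum.

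Among the class II members, which bind collagen and carry keratan sulfate or tyrosine sulfate, Lum showed the largest difference. Lumican regulates fibril assembly and also binds bacterial products and CD14. Lum (ENSMUSG00000036446, chromosome 10, 97400990 to 97408565, mm39) had 1593, 1362 and 1253 CPM across WT replicates 1 to 3, against 507, 601 and 369 CPM across sST2-KO replicates 1 to 3. The lowest WT library was above the highest sST2-KO library with a wide gap between them. Mean levels of 1403 ± 173 CPM for WT but 492 ± 117 CPM for sST2-KO (SD, n = 3 each) corresponded to a log2 change of -1.51 (adjusted p = 0.335 in edgeR, SE 0.28; DESeq2 adjusted p = 3.71e-06; limma-voom with quality weights adjusted p = 0.0425). Among all 16377 tested genes it ranked 48 by edgeR p. With any 1 library left out, its log2 change stayed between -1.68 and -1.34.

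Fibromodulin, the gene beside Prelp and a protein that slows fibril growth and guides collagen crosslinking, had the next largest difference. Fmod (ENSMUSG00000041559, chromosome 1, 133964992 to 133976015, mm39) reached 208, 319 and 227 CPM across WT replicates 1 to 3, against 133, 54.1 and 100.3 CPM across sST2-KO replicates 1 to 3. All sST2-KO libraries were below all WT libraries, and sST2-KO replicate 2 was the lowest. Its log2 change was -1.395 (adjusted p = 0.386 in edgeR, SE 0.36; DESeq2 adjusted p = 0.0167), and it was -1.11 at its smallest and -1.70 at its largest with 1 library left out.

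Prolargin, a class II protein that anchors basement membranes to collagen, showed a smaller difference than its neighbour Fmod. Prelp (ENSMUSG00000041577, chromosome 1, 133838042 to 133849152, mm39) had 518, 710 and 528 CPM across WT replicates 1 to 3, against 375, 305 and 461 CPM across sST2-KO replicates 1 to 3. The groups did not overlap, and sST2-KO replicate 3 came nearest to WT. The log2 change was -0.62 (adjusted p = 0.451 in edgeR, SE 0.26). Osteomodulin, best known from bone, was the scarcest member. Omd (ENSMUSG00000048368, chromosome 13, 49735938 to 49746298, mm39) had 11.3, 40.5 and 14.1 CPM across WT replicates 1 to 3, against 12.6, 12.6 and 13.4 CPM across sST2-KO replicates 1 to 3. Only WT replicate 2 stood apart, while WT replicate 1 was the lowest of all libraries. Its log2 change of -0.77 (adjusted p = 0.548 in edgeR, SE 0.48) was 0.0013 without WT replicate 2.

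Class I holds decorin and biglycan, which bind collagen and TGF-beta, and asporin, a TGF-beta binding relative without the usual sugar chain. Dcn (ENSMUSG00000019929, chromosome 10, 97315471 to 97354005, mm39) had 2714, 4474 and 2674 CPM across WT replicates 1 to 3, against 1944, 1921 and 1334 CPM across sST2-KO replicates 1 to 3. Groups did not overlap. The means of 3287 ± 1028 and 1733 ± 346 CPM (SD, n = 3 each) gave a log2 change of -0.92 (adjusted p = 0.442 in edgeR, SE 0.34; DESeq2 adjusted p = 0.0832).

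Biglycan can also signal through Toll-like receptors when it is released from the matrix. Bgn (ENSMUSG00000031375, chromosome X, 72527208 to 72539539, mm39) had 3363, 6972 and 3587 CPM across WT replicates 1 to 3, against 2962, 2079 and 3526 CPM across sST2-KO replicates 1 to 3. sST2-KO replicate 3 lay above WT replicate 1, so the groups overlapped. The log2 change was -0.70 (adjusted p = 0.528 in edgeR, SE 0.41), and without WT replicate 2 it was -0.30 (adjusted p = 0.798 in edgeR, SE 0.35).

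Aspn (ENSMUSG00000021388, chromosome 13, 49697919 to 49721041, mm39) had 144, 313 and 139 CPM across WT replicates 1 to 3, against 138, 95.8 and 109 CPM across sST2-KO replicates 1 to 3. The groups were separated only by the small step between WT replicate 3 and sST2-KO replicate 1. Its log2 change of -0.797 (adjusted p = 0.465 in edgeR, SE 0.36) became -0.32 (adjusted p = 0.643 in edgeR, SE 0.19) without WT replicate 2. Ecm2, whose product shares the repeats of decorin and is known from adipose tissue and female organs, lies on chromosome 13 from 49658286 to 49686265 (ENSMUSG00000043631, mm39). It had 82.0, 220 and 102 CPM across WT replicates 1 to 3, against 112, 96.2 and 136 CPM across sST2-KO replicates 1 to 3. WT replicate 2 was the highest library and WT replicate 1 the lowest. The log2 change of -0.23 (adjusted p = 0.811 in edgeR, SE 0.38) turned to 0.30 (adjusted p = 0.673 in edgeR, SE 0.21) without WT replicate 2.

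Osteoglycin, a class III member also called mimecan, limits fibril thickness. Ogn (ENSMUSG00000021390, chromosome 13, 49761522 to 49777977, mm39) had 328, 1211 and 405 CPM across WT replicates 1 to 3, against 397, 364 and 379 CPM across sST2-KO replicates 1 to 3. WT replicate 2 alone was high, and the other 5 libraries overlapped. The log2 change of -0.77 (adjusted p = 0.555 in edgeR, SE 0.50) became 0.032 (adjusted p = 0.968 in edgeR, SE 0.19) without that library. Podocan, a class V member known as a brake on smooth muscle proliferation, had a small spread within groups. Podn (ENSMUSG00000028600, chromosome 4, 107871988 to 107953642, mm39) had 88.2, 112 and 87.5 CPM across WT replicates 1 to 3, against 46.4, 44.5 and 60.9 CPM across sST2-KO replicates 1 to 3. All WT libraries were above all sST2-KO libraries. The log2 change was -0.92 (adjusted p = 0.339 in edgeR, SE 0.19; DESeq2 adjusted p = 0.0122), and without WT replicate 2 it was -0.81. Its span overlaps Scp2 on the same strand, so reads shared by both genes cannot be assigned with certainty.

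Across members, 6 of 10 separated the groups without overlap, all lower in sST2-KO (Lum, Fmod, Prelp, Dcn, Aspn and Podn), where 10% of tested genes did so and 9.09% were separated the other way. A gene separated in all 6 libraries stays separated when libraries are left out, so such counts can only rise. No further member was separated without WT replicate 2, where the background was 15.7%, without WT replicate 3 (13.1%) or without sST2-KO replicate 2 (17.3%). Nor was any further member separated without the last 2 libraries together, with a background of 21.1%. These left-out counts were chosen after seeing the data. The median log2 change of the 10 members was -0.40 without WT replicate 2.

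**Figure D2:**
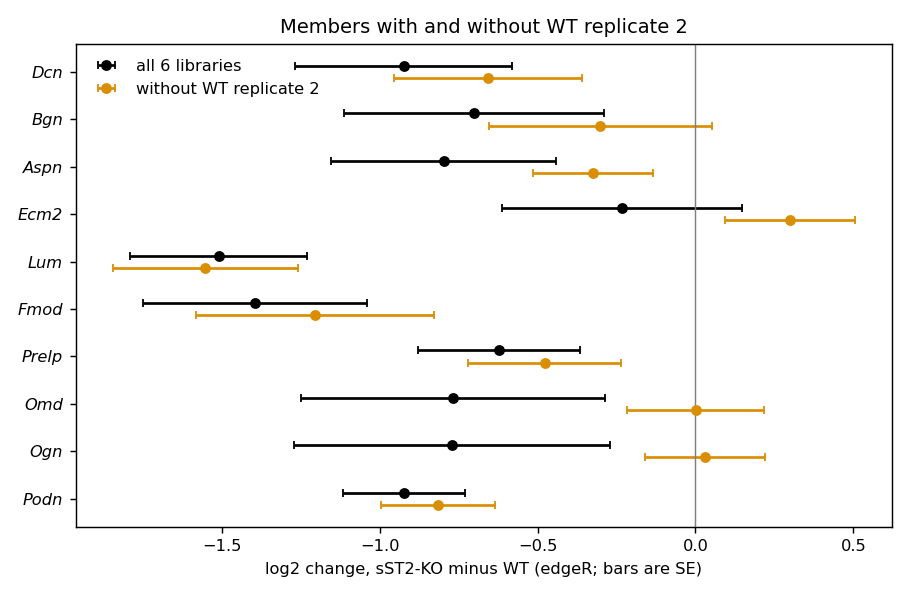
Log2 change of each member (horizontal axis, sST2-KO minus WT, edgeR, bars are SE) with all 6 libraries in black and without WT replicate 2 in orange. Lum stays near -1.5 in both fits, Omd and Ogn move to 0.0013 and 0.032, and Ecm2 moves from -0.23 to 0.30.

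Levels across libraries were compared between neighbours and between members on other chromosomes. Over the 6 libraries, log2 CPM of Omd and Ogn had a Pearson r of 0.997, and that of Ecm2 with them was 0.92 and 0.91. Aspn correlated with Omd, Ogn and Ecm2 at 0.899, 0.91 and 0.75. Bgn, on chromosome X, reached 0.93 with Aspn, 0.87 with Omd, 0.86 with Ogn and 0.81 with Ecm2, so high coefficients were not limited to neighbours. On chromosome 1 Prelp and Fmod had an r of 0.92, and on chromosome 10 Dcn and Lum had 0.87. For Lum and Ecm2 the r was -0.0095. The closest relations of Podn were with Prelp (0.96) and Fmod (0.898), which lie on another chromosome. These coefficients describe 6 points that share library, depth and group, and for the chromosome 13 genes WT replicate 2 sets most of the range. Relative to each gene's own mean over libraries, log2 CPM in that library was 1.41 for Ogn, 1.36 for Omd, 1.12 for Aspn and 0.896 for Ecm2. It was 1.1 for Fmod, 0.996 for Bgn, 0.938 for Dcn and 0.73 for Lum. WT replicate 2 also had the largest share of counts from mitochondrially encoded genes (37.8%, against 7.08 to 23.7% elsewhere) and a summed level of 9 smooth muscle markers of 9382 CPM. That sum was 3083 and 4540 CPM for WT replicates 1 and 3, against 5137, 6198 and 10677 CPM across sST2-KO replicates 1 to 3, with sST2-KO replicate 3 the highest of all. The marker sum differed by 0.46 on the log2 scale, with overlap. Set against it in each library, all 10 members were lower in sST2-KO without overlap, by a log2 difference of -0.57 for Ecm2 to -1.99 for Lum, as were 6.09% of all tested genes set against the same sum. The part of these differences in the result was not tested.

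**Figure D3:**
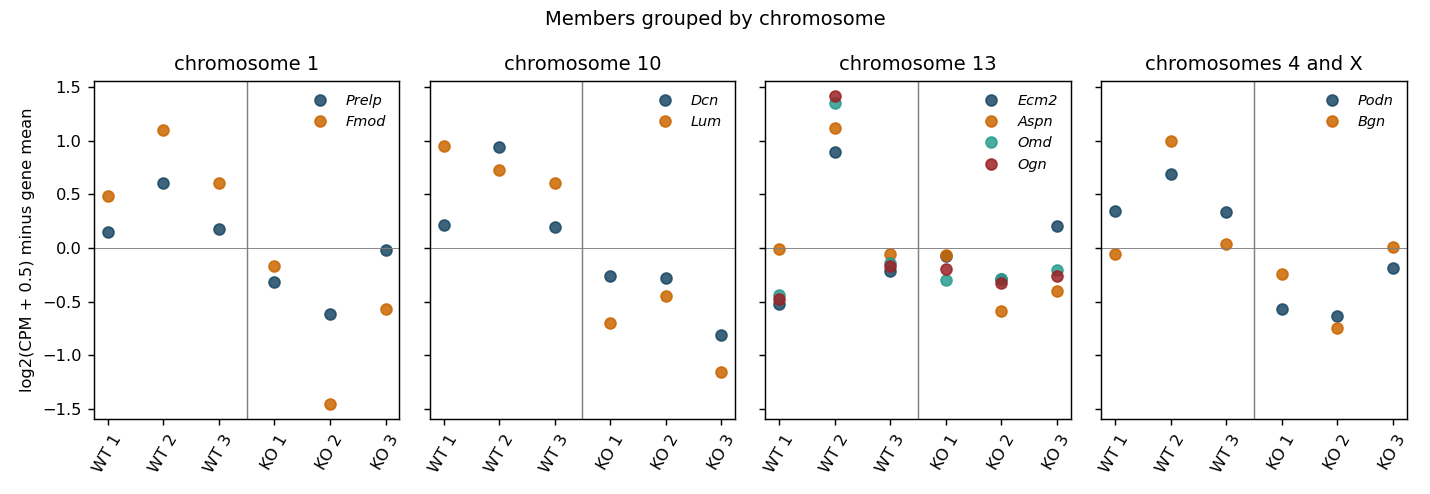
Level of each member relative to its own mean over the 6 libraries (vertical axis, log2 of CPM plus 0.5), with the members in panels by chromosome and the libraries along the horizontal axis. All members are above their mean in WT replicate 2 (0.896 to 1.41 for the 4 genes of chromosome 13). Lum, Fmod, Podn, Dcn and Prelp are above their means in all 3 WT libraries.

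The balance between members within a library does not depend on how libraries are scaled. Lum took 31.0, 16.1 and 25.2% of the family's summed RPKM across WT replicates 1 to 3, against 14.6, 19.9 and 11.1% across sST2-KO replicates 1 to 3. WT replicate 2 lay within the sST2-KO range. Bgn took 29.4 ± 3.49% in WT and 34.9 ± 7.54% in sST2-KO, and Dcn took 22.3 ± 0.205% and 22.4 ± 5.01% (SD, n = 3 each). The log2 ratio of Lum to Dcn, a neighbour on the same chromosome, was -0.77, -1.71 and -1.09 across WT replicates 1 to 3, against -1.94, -1.67 and -1.85 across sST2-KO replicates 1 to 3. The difference of -0.63 gave an exact two-sided permutation p of 0.2 over the 6 libraries (0.60 adjusted over 9 ratios), and without WT replicate 1 it was -0.42. The smallest p that 3 libraries against 3 allow is 0.1.

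Ecm2 was the only member whose ratio to Dcn did not overlap between groups. Its log2 ratio was -5.04, -4.34 and -4.71 across WT replicates 1 to 3, against -4.11, -4.31 and -3.29 across sST2-KO replicates 1 to 3, higher in every sST2-KO library. The difference of 0.79 had an exact two-sided permutation p of 0.1 (0.60 adjusted), and without sST2-KO replicate 3 it was 0.485. Dcn itself had a log2 change of -0.92, against -0.23 for Ecm2 and a median of 0.042 over all tested genes. A ratio to Dcn can thus be higher in sST2-KO although its numerator is not. The share of all tested genes separated in this ratio was not counted. Fmod to Dcn differed by -0.56 (exact permutation p = 0.2), with sST2-KO replicate 2 at -5.14 and the other sST2-KO libraries at -3.87 and -3.73, against -3.81 to -3.55 in WT. Without sST2-KO replicate 2 that difference was -0.11. Podn to Dcn differed by -0.020 (exact permutation p = 1.0), with means of -5.06 ± 0.22 in WT and -5.08 ± 0.55 in sST2-KO (SD, n = 3 each). The ratios of Bgn, Aspn, Prelp, Omd and Ogn to Dcn differed by 0.20 to 0.38, with exact permutation p-values of 0.4 to 0.8 (0.72 to 0.90 adjusted). With 1 library left out these 5 ranged from -0.097 to 0.715.

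**Figure D4:**
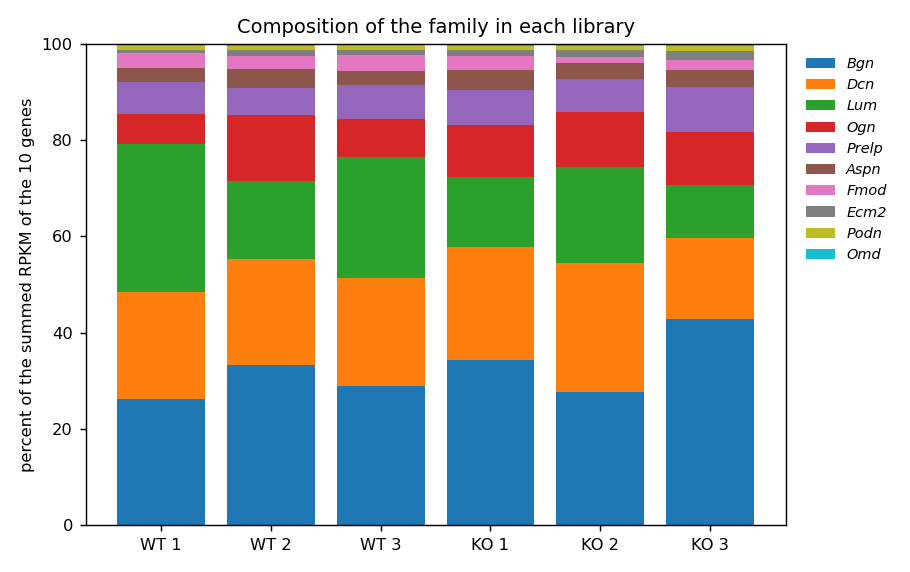
Share of each member in the summed RPKM of the 10 genes (vertical axis, percent) in each library, as stacked bars with the members in a fixed order. Bgn, Dcn and Lum make up most of every bar, and the Lum section is widest in WT replicates 1 and 3 (31.0 and 25.2%).

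Markers of the cells that make these proteins were also measured. Of 12 fibroblast markers 0 passed in edgeR in either direction and 8 had negative log2 changes, while the list's median was -0.40. Pdgfra, a receptor that marks fibroblasts, had 91.6, 166 and 99.9 CPM across WT replicates 1 to 3, against 74.3, 94.6 and 57.2 CPM across sST2-KO replicates 1 to 3, and WT replicate 1 lay below sST2-KO replicate 2. The summed fibroblast markers were 2863, 3252 and 2825 CPM across WT replicates 1 to 3, against 2487, 2291 and 2139 CPM across sST2-KO replicates 1 to 3, without overlap. Set against that sum in each library, Lum differed by -1.16 and Fmod by -1.09 on the log2 scale, Dcn by -0.53 and Podn by -0.56, each without overlap between groups. Of all tested genes, 2.86% were lower without overlap against the same sum. Prelp, Bgn, Aspn, Omd and Ogn differed by -0.33 to -0.15 and Ecm2 by 0.26, all with overlap. Of 8 macrophage markers 8 had negative log2 changes and 0 passed in edgeR, while the list's median was -0.998. Their summed levels were 923 to 1137 CPM for WT but 522 to 714 CPM for sST2-KO. Against that sum, Lum was the only member without overlap, with a log2 difference of -0.68. Its separation was nearly a tie. The lowest WT library (replicate 3, log2 ratio 0.1744) lay barely above the highest sST2-KO library (replicate 2, log2 ratio 0.1735). Set against the macrophage sum, 0.782% of all tested genes were lower without overlap. The part of either cell type in the members' differences was not tested.

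Other genes of the family were scarce or high in a single library. Of 9 further members 7 were tested, 0 passed in edgeR in either direction, and 3 had negative log2 changes. Epyc, which encodes the cartilage proteoglycan epiphycan and lies near Dcn and Lum, had 25.1, 11.4 and 22.4 CPM across WT replicates 1 to 3, against 12.2, 11.2 and 9.65 CPM across sST2-KO replicates 1 to 3. WT replicate 2 lay among the sST2-KO libraries, and the log2 change was -0.84 (adjusted p = 0.443 in edgeR, SE 0.32). Kera, the cornea keratocan gene, named for its place between Lum and Epyc, had 0 counts in all 6 libraries, which allows at most 0.148 to 0.239 CPM (3 counts, counting error only). Chad, the chondroadherin gene, reached 293 CPM in sST2-KO replicate 2, the library with airway transcripts, and at most 21.4 CPM elsewhere. The part of that tissue in the Chad value was not tested.

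The enzymes that build the sugar chains gave values in both directions. Of 26 enzymes of the linker and of chondroitin and dermatan sulfate, 25 were tested and 0 passed in edgeR, and 16 had negative log2 changes, while the list's median was -0.15. Xylt1, which starts the chain on the core protein, had 17.9, 31.3 and 17.7 CPM across WT replicates 1 to 3, against 12.2, 9.80 and 9.18 CPM across sST2-KO replicates 1 to 3, without overlap (log2 change -1.10, SE 0.29, adjusted p = 0.390 in edgeR). Ugdh, which makes the sugar donor glucuronic acid, was at 120 ± 35.8 CPM over WT libraries, against 64.9 ± 8.67 CPM over sST2-KO libraries (SD, n = 3 each). Dse, the epimerase that turns chondroitin into dermatan sulfate, had a log2 change of -0.56 (adjusted p = 0.435 in edgeR, SE 0.20). In the other direction, B3gat3, a linker enzyme gene, had 35.3, 16.1 and 33.6 CPM across WT replicates 1 to 3. It had 46.9, 51.4 and 42.6 CPM across sST2-KO replicates 1 to 3, without overlap (log2 change 0.73, SE 0.30, adjusted p = 0.451 in edgeR). Of 9 keratan sulfate enzymes 8 were tested, 0 passed in edgeR, and 5 had negative log2 changes, while the list's median was -0.19. The most abundant, the galactosyltransferase gene B4galt1, had a log2 change of -0.18 (adjusted p = 0.711 in edgeR, SE 0.196). Tpst1 and Tpst2, which sulfate tyrosines of fibromodulin and lumican, had log2 changes of 0.25 (SE 0.16) and 0.40 (SE 0.24) and did not pass (edgeR adjusted p = 0.559 and 0.527).

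Fibril collagens, which these proteins coat, mostly had lower estimated levels. Of 13 chains of fibrils and their surface 0 passed in edgeR, 12 had negative log2 changes (46.5% of all tested genes did) and 9 were lower without overlap (10% of all tested genes were), and the median was -0.75. Col3a1, the chain of type III collagen, had 4140, 3653 and 3940 CPM across WT replicates 1 to 3, against 2230, 1641 and 1414 CPM across sST2-KO replicates 1 to 3 (log2 change -1.15, SE 0.30, adjusted p = 0.386 in edgeR). Col1a2, of type I collagen, had a log2 change of -0.745 (adjusted p = 0.443 in edgeR, SE 0.29). The single chain with a positive log2 change was Col5a3 (0.58), which is named after its value was seen. Genes for maturation of collagen were negative in log2 change for 15 of 18, 0 passed in edgeR, and the list's median was -0.38. Plod2, a lysyl hydroxylase that prepares collagen for crosslinking, had 94.0, 168 and 93.2 CPM across WT replicates 1 to 3, against 56.4, 46.7 and 71.4 CPM across sST2-KO replicates 1 to 3, without overlap (log2 change -1.03, SE 0.29, adjusted p = 0.416 in edgeR). Proteases that cleave these proteoglycans were negative in log2 change for 7 of 10, 0 passed in edgeR, and the list's median was -0.70. Among them Mmp12, an elastase of macrophages, was at 311 ± 35 CPM over WT libraries, against 128 ± 53.7 CPM over sST2-KO libraries (SD, n = 3 each).

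Receptors and ligands that the proteins bind gave mixed values. Of 18 genes 0 passed in edgeR, 11 had negative log2 changes and the median was -0.26. At an unadjusted p under 0.05 in edgeR, 3 were lower and 0 higher, against 5.95% and 5.08% of all tested genes. Without overlap, 4 were lower and 0 higher, against 10% and 9.09% of all tested genes. Tlr2, a receptor of soluble biglycan, had 36.8, 31.9 and 37.3 CPM across WT replicates 1 to 3, against 18.9, 15.5 and 15.4 CPM across sST2-KO replicates 1 to 3, without overlap (log2 change -1.09, SE 0.17, adjusted p = 0.294 in edgeR). Egfr, to which decorin binds, was at 63.9 ± 17.4 and 32.4 ± 7.61 CPM (SD, n = 3 each), and Cd44 was at 146 ± 38.4 and 78.4 ± 10.1 CPM (SD, n = 3 each). Ccn2, a TGF-beta target whose product decorin binds, reached 3199 CPM in sST2-KO replicate 3 and 869 to 1623 CPM in the other libraries. In the list of genes known to rise with TGF-beta 8 of 12 had negative log2 changes, 0 passed in edgeR, and the list's median was -0.49. Tgfbi was at 315 ± 13.3 CPM over WT libraries, against 162 ± 40.9 CPM over sST2-KO libraries (SD, n = 3 each), while Acta2 had a log2 change of 0.38 (adjusted p = 0.789 in edgeR, SE 0.57). For comparison, 46.5% of all tested genes had a negative log2 change.

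**Figure D5:**
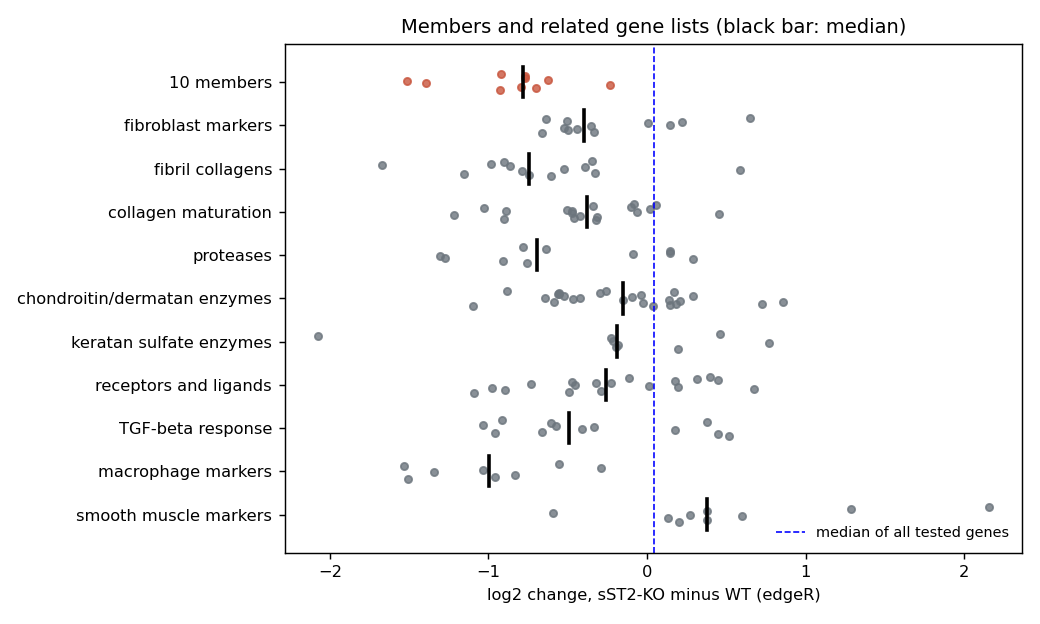
Log2 change (horizontal axis, sST2-KO minus WT, edgeR) of each tested gene in the members and in related lists, with a black bar at the median of each and a dashed line at the median of all tested genes (0.042). The members' median is -0.78, near that of the fibril collagens (-0.75), and the smooth muscle markers have a median of 0.38.

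Genes whose pattern over the 6 libraries was most like the members' mean profile were Ppt1 (Pearson r = 0.997), Timp2 (0.995), Epm2aip1 (0.993), Fndc3b (0.99), Hif1a (0.99) and Arel1 (0.99). Timp2, an inhibitor of matrix proteases, had 922, 1306 and 928 CPM across WT replicates 1 to 3, against 788, 748 and 808 CPM across sST2-KO replicates 1 to 3. Like 9 of 10 members, all 6 were highest in WT replicate 2, and their log2 changes ran from -0.71 for Fndc3b to -0.16 for Epm2aip1. They were picked from the tested protein-coding genes by this coefficient, over points that share library and depth.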

How the data were processed

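Raw counts for each Ensembl gene, as deposited by the authors, cover 6 libraries, with mm39 named as genome build in the submitters' processing notes. Per the labels' protocols, poly-T-selected RNA was copied from random hexamers. For the aligner, counting program, strand setting and annotation, the settings were not given in the sources used here. Coordinates and gene length are those of the deposited table. Totals were 15615658 to 17988552 counts per library.

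The test used edgeR 4.0.16 (R 4.3.3) on these counts: filterByExpr (minimum count 10, total 15), TMM scaling, glmQLFit and glmQLFTest on group alone, Benjamini-Hochberg adjustment over all 16377 tested genes, threshold 0.05. The standard error is the size of the log2 change divided by the square root of F. Levels are TMM-normalized CPM. RPKM divides them by the deposited gene length, so it depends on the gene model. Ratios used a pseudocount of 0.5 CPM. The edgeR script was tested on simulated data with less spread between libraries than here and with larger log2 changes than any member had. That test does not measure the power to find changes of the members' size. Alternatives were DESeq2 1.42.0, run on the genes that passed the filter, limma 3.58.1, other scalings and filters, a replicate block and libraries left out. Libraries of a group differed by 5.86 to 36.4 times counting noise, so none was merged. Columns were matched to samples by library name. No sequence of a protein was used here. Plots were drawn with matplotlib 3.10.9.

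The members and lists were chosen with earlier results of these data known. Genes named besides the 10 members are, per list, up to 4 with the lowest p and up to 2 of the most abundant, and the 6 genes of most similar pattern. Kera, Col5a3 and B3gat3 fall outside that rule and were named after their values were seen. So were Acan, for its positive log2 change, and Il1rl1 and Apoe, as checks of the labels. Aspn, Ecm2, Omd and Ogn lie within the span of Cenpp on the opposite strand, which had at most 20 counts, and Prelp overlaps Gm15851, with at most 4.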

Additional observations from a re-analysis of the deposited data

How the results depend on the processing

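DESeq2 called 59 genes higher and 232 lower and 3 members lower, and limma-voom with quality weights called 8 and 35 genes and 1 member. Under that weighting the members' median was -0.36 and Ecm2 was at 0.23. With 1 library left out, 0 to 1 genes were called lower (1 without sST2-KO replicate 2) and the members' median was -1.0 to -0.40. The ranges were -0.47 to 0.30 for Ecm2, -1.06 to 0.0013 for Omd and -1.07 to 0.032 for Ogn, with the upper value of each without WT replicate 2. For ratios to Dcn they were -0.051 to 0.48 for the median of 9 ratios, -0.097 to 0.55 for Bgn, -0.051 to 0.51 for Prelp, -0.34 to 0.15 for Podn and 0.485 to 0.99 for Ecm2. Leaving out WT replicate 3 together with sST2-KO replicate 2 put Podn at 0.22. The cause of these shifts was not tested. The negative ends for Bgn, Prelp and the median came without sST2-KO replicate 3. Lum, Fmod, Podn, Dcn, Prelp, Aspn and Bgn had negative log2 changes under all 17 alternatives, among them RLE and upper-quartile scaling, the other filters, protein-coding genes alone and mitochondrially encoded genes left out. Replicate numbers are not stated to pair the mice. Deviations of same-numbered libraries correlated at 0.17, 0.074 and -0.069 for numbers 1 to 3, and WT replicate 3 did not correlate best with its own number. With the number as a replicate block, 0 genes were called and the members' median was -0.67, with Lum at -1.53. A mean of same-numbered differences leaves each ratio as it was. The lowest count of a member was 202. Each group had 3 libraries, which differed by 5.86 to 36.4 times counting noise in the median over genes. The part of depth in the precision of the members was not tested.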

Other observations

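Large proteoglycans had log2 changes of both signs, and those with an unadjusted p under 0.05 in edgeR were all lower. Of 23 genes for aggregating, basement membrane and cell-surface proteoglycans 21 were tested, 0 passed in edgeR in either direction, 12 had negative log2 changes and the median was -0.57. At an unadjusted p under 0.05 in edgeR, 9 were lower and 0 higher, against 5.95% and 5.08% of all tested genes. Without overlap, 8 were lower and 0 higher, against 10% and 9.09% of all tested genes. Prg4, which encodes the joint lubricant lubricin, had 336, 155 and 272 CPM across WT replicates 1 to 3, against 58.0, 86.2 and 29.1 CPM across sST2-KO replicates 1 to 3, without overlap (log2 change -2.14, SE 0.46, adjusted p = 0.339 in edgeR). Vcan, the versican gene of the arterial matrix, was at 159 ± 32.5 CPM over WT libraries, against 89.9 ± 28.6 CPM over sST2-KO libraries (SD, n = 3 each). Hspg2, which encodes the basement membrane proteoglycan perlecan, had a log2 change of 0.11 (adjusted p = 0.871 in edgeR, SE 0.26).

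Cartilage markers were measured in the same libraries, since Fmod, Prelp and Chad are known as abundant cartilage genes. Col2a1, the main cartilage collagen gene, had 29.6, 126 and 67.1 CPM across WT replicates 1 to 3, against 3.12, 12.4 and 2.59 CPM across sST2-KO replicates 1 to 3, without overlap (log2 change -3.61, SE 0.79, adjusted p = 0.339 in edgeR). Comp, a matrix protein gene of cartilage and tendon, was at 214 ± 15.2 CPM over WT libraries, against 146 ± 35.1 CPM over sST2-KO libraries (SD, n = 3 each). Of 6 markers 5 were tested, 0 passed in edgeR, and 3 had negative log2 changes. Acan and Chad had positive ones (0.52, SE 0.42, and 3.14, SE 1.89). Acan was highest in sST2-KO replicate 3 (77.2 CPM), and Chad in sST2-KO replicate 2 (293 CPM). The part of cartilage-like cells in the members' values was not tested.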
